A study of Mus musculus with 6 samples.

Results

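Transcripts of 10 genes that macrophages express were followed in optic fissures taken from E11.5 mouse embryos: Csf1r, Cx3cr1, Mrc1, Tyrobp and Ptprc, which encode receptors and signalling proteins of the cell surface, C1qa, C1qb and C1qc, which encode the chains of complement C1q, and the lysozyme genes Lyz1 and Lyz2. They were represented by all probe sets that the platform annotation assigns to 1 of these symbols alone, which came to 18 of the 45101 probe sets of the array. This fissure, a groove along the ventral side of the optic cup, was dissected with a laser microscope. The FGFR mutant group held 3 samples of genotype Six3Cre+;Fgfr1fx/fx;Fgfr2fx/fx and the control group 3 samples of genotype Six3Cre-;Fgfr1fx/fx;Fgfr2fx/fx, so both groups carried the loxP-flanked (fx) receptor alleles and differed in the Cre transgene. All samples were labelled C57BL/6J. Six3Cre is active in the early eye field and forebrain neuroectoderm, from which macrophages do not derive. Each sample was 1 Affymetrix array, and the numbers 8711, 9216 and 9266 each name 1 mutant and 1 control sample. The labels do not say whether samples came from separate embryos or from pools, so p-values reflect the spread between samples alone, part of which may be technical.

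Macrophages of the early embryo arise largely in the yolk sac and enter the head, eye and brain through the mesenchyme and the first vessels. Csf1r, the receptor for the growth factors Csf1 and Il34, carries the signal on which their survival depends. In the developing eye they clear dying cells and remodel vessels. C1q opens the classical complement pathway and tags material for uptake, and lysozyme degrades bacterial cell walls.

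The values are MAS5 intensities that the authors had already scaled, with a 2% trimmed mean of 150 in every array, and differences are mutant minus control on the scale of log2(intensity + 1.7), which understates changes of dim genes. Probe sets with a mean log2 value under 4.07, a linear intensity of 15.1, were left out of the test, and 27022 remained. With 3 arrays a group, their number limits the precision. The brightest probe set of the targeted Fgfr1 ranged from 59.9 to 141 in the mutants and from 89.8 to 247 in the controls, and that of Fgfr2 from 869.9 to 1316 in the mutants and from 314 to 474 in the controls. The position of these probes relative to the deleted parts was not analysed here, so they do not check the labels. Array quality was uneven: in mutant 8711 the ratio of 3 prime to 5 prime Gapdh signal was 93.6, against 4.26 and 9.73 in the other mutants and 4.93 to 15.0 in the controls. The median intensity of mutant 8711 was 18.1, against 32.2 and 34.6 in the other mutants and 28.7 to 30.3 in the controls. That array had the lowest value of the 6 for 38.4% of the probe sets tested. Aldh1a3, a retinoic acid synthesis enzyme, was the brightest of 9 optic cup genes tested. It had 3562 ± 1304 in the mutants and 5583 ± 622 in the controls (SD, n = 3 each). Pax6, a regulator of eye development, had 2228 ± 236 and 1565 ± 184 in the same order. Of the 9 genes, 2 were higher in the mutants and 7 lower, with a median log2 difference of -0.71, beside 53.6% of all genes with a higher value.

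All 10 macrophage genes had at least 1 probe set in the test, and most had higher values in the mutants, by amounts that did not pass adjustment over all probe sets. The brightest probe set of each gene was higher in the mutants for 7 genes and lower for 3 (Cx3cr1, C1qa and C1qc), with a median log2 difference of 0.44, beside 0.03 over the 12282 genes tested. Of the 15 member probe sets tested, 12 (80%) had higher and 3 lower values, beside 45.5% of all probe sets with a higher value. In limma 0 of the 15 passed an adjusted p of 0.05, with adjusted p between 0.838 and 0.984, and the same was true of 0% of all probe sets. At an unadjusted p under 0.05, 6 of the 15 were higher and 0 lower, beside 3.02% and 2.55% of all probe sets. Values of the mutants and controls did not overlap for 5 of the 15, each with the mutants higher, beside 7.08% of all probe sets higher and 6.39% lower. These 5 belonged to Csf1r, C1qb and Lyz2, that is 3 of 10 genes by their brightest probe set, beside 9.44% of all genes. Without the filter, 13 of all 18 member probe sets were higher, and 6 did not overlap, beside 7.11% of all probe sets higher and 5.18% lower. Probe sets of 1 gene share their target and are not independent. In dissected tissue, a change in the number of macrophages and in RNA per macrophage cannot be told apart.

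**Figure D1:**
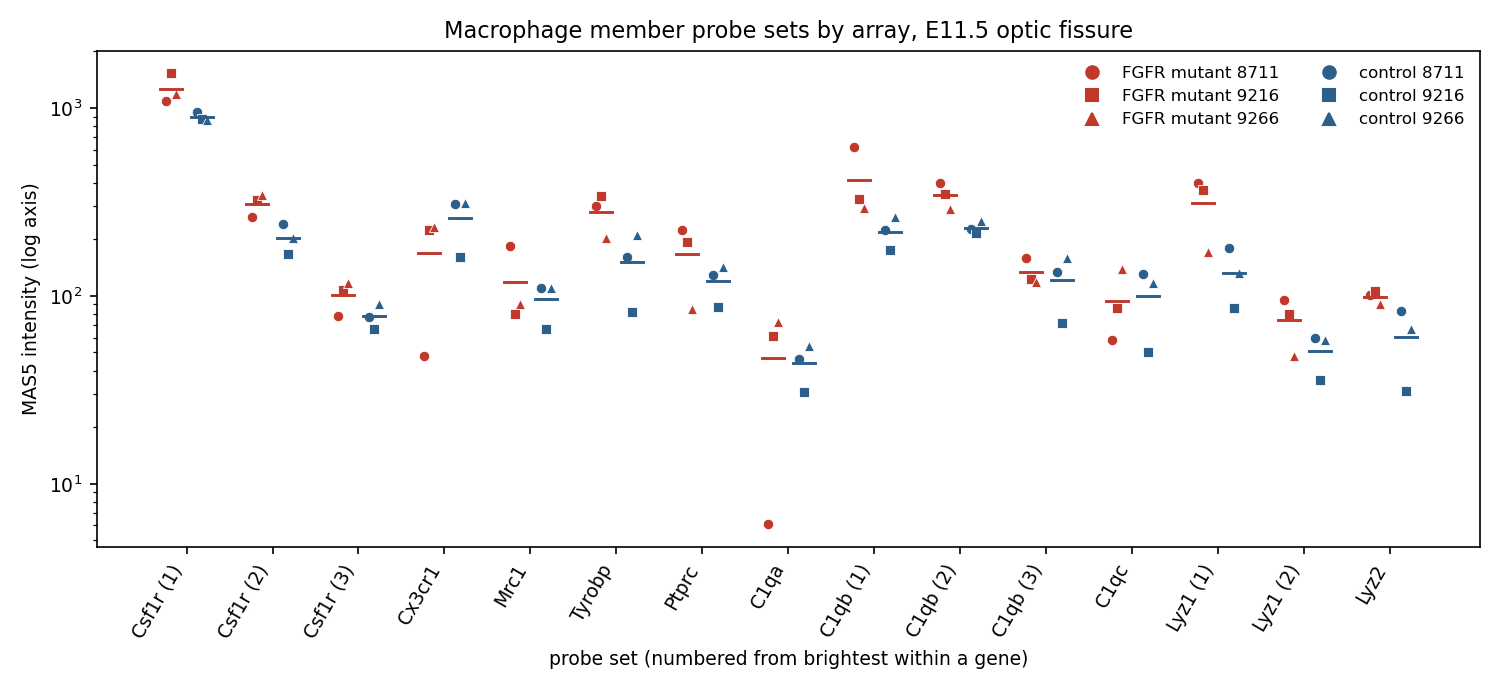
MAS5 intensity (log axis) of the 15 member probe sets tested, with 1 point per array, mutants left of controls, and the group mean as a line. Control 9216 is the lowest control in 14 of the 15, and mutant 8711 lies far below the other mutants for C1qa and Cx3cr1.

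Control 9216 was the lowest of the controls for 14 of the 15 probe sets, beside 42.1% of all probe sets, and the lowest of all 6 arrays for 11, beside 16.1%. Mutant 8711 was the lowest of all 6 for 2 of the 15, although it was lowest for 38.4% of all probe sets, and the highest of all 6 for 7. Averaged over the 10 genes, log2 levels relative to the control mean were 0.17, 0.58 and 0.32 in mutants 8711, 9216 and 9266, against 0.26, -0.53 and 0.26 in controls 8711, 9216 and 9266. The groups overlapped in this mean, since mutant 8711 lay below controls 8711 and 9266. Without control 9216 the median over the genes was 0.29, with 6 of 10 genes and 10 of 15 probe sets higher. Without mutant 8711 it was 0.55, with 8 of 10 genes and 13 of 15 probe sets higher, and without mutant 9266 it was 0.67. Without both mutant 8711 and control 9216, 10 of 15 probe sets were higher, and the median was 0.37.

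**Figure D2:**
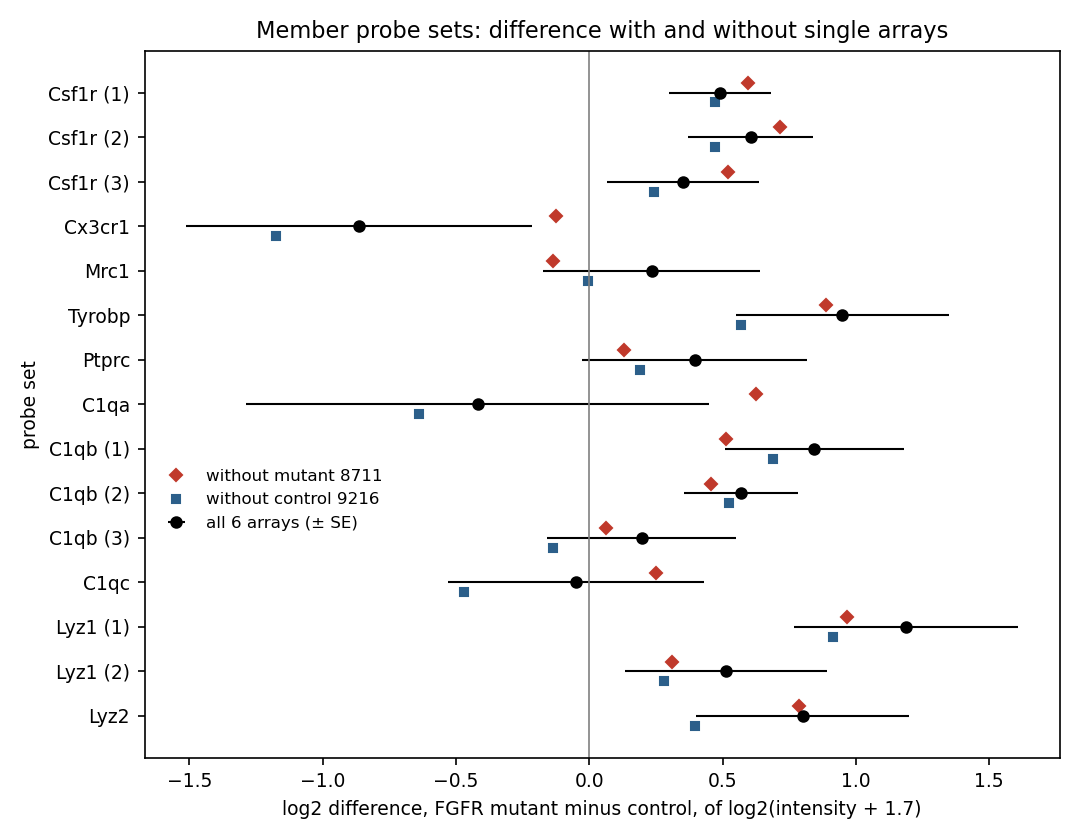
Log2 difference, mutant minus control, of the 15 member probe sets: black points with SE for all 6 arrays, red diamonds without mutant 8711 and blue squares without control 9216. Csf1r, Tyrobp, Ptprc, Lyz1, Lyz2 and the first and second C1qb probe sets stay above 0 in all 3 fits. C1qa is -0.42 with all arrays and 0.63 without mutant 8711.

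Among the receptors, Csf1r had the smallest standard errors. Its brightest probe set, 1419872_at, had 1085, 1531 and 1192 in mutants 8711, 9216 and 9266, against 951, 873 and 859 in controls 8711, 9216 and 9266. Every mutant array was above every control array, with means of 1269 ± 233 and 894 ± 49.5 (SD, n = 3 each) and a log2 difference of 0.49 (SE 0.19). The next brightest, 1419873_s_at, had 264, 323 and 343 in the mutants, against 243, 168 and 202 in the controls, again without overlap and with a log2 difference of 0.60 (SE 0.24). The dimmest, 1423593_a_at, had 78.1, 107 and 117 in the mutants and 77.4, 66.7 and 90.5 in the controls, a log2 difference of 0.35 (SE 0.28). In that probe set mutant 8711 lay among the controls, and without this array the difference was 0.52 and the groups did not overlap. Leaving out mutant 8711 brought the member probe sets without overlap to 7 of 15, all higher, beside 14.5% of all probe sets higher and 11% lower. The adjusted p in limma was 0.852 for each of the 3 probe sets. In all 3 probe sets mutant 8711 was the lowest of the mutants.

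Tyrobp encodes DAP12, the adaptor through which Trem2 and other myeloid receptors signal. Its probe set, 1450792_at, had 299.5, 339.7 and 203 in mutants 8711, 9216 and 9266, against 161, 82.5 and 212 in the controls in the same order. Mutant 9266 fell below control 9266, so the groups overlapped, and the log2 difference was 0.95 (SE 0.40, adjusted p = 0.852 in limma). The difference was 0.57 without control 9216 and 0.89 without mutant 8711. Ptprc encodes CD45, a phosphatase found on nearly all white blood cells. Its brighter probe set, 1422124_a_at, had 224, 193 and 85.4 in the mutants and 129, 87.7 and 142 in the controls, a log2 difference of 0.40 (SE 0.42). Mutant 9266 was the lowest of the 6 arrays and mutant 8711 the highest, so the spread among the mutants exceeded the difference. It was 0.13 without mutant 8711, 0.24 without mutant 9216, 0.19 without control 9216 and 0.82 without mutant 9266. The other Ptprc probe set, 1440165_at, was under the filter level in all 6 arrays, between 5.8 and 9.3 in the mutants and 6.9 and 13.6 in the controls.

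Mrc1, the mannose receptor CD206, and Cx3cr1, the receptor for the chemokine Cx3cl1, differed by less than their spread. The Mrc1 probe set, 1450430_at, had 185, 79.7 and 90.4 in the mutants, against 110.5, 66.8 and 110.6 in the controls, a log2 difference of 0.23 (SE 0.41). It rested on mutant 8711, without which it was -0.14, and without control 9216 it was -0.004. The brighter Cx3cr1 probe set, 1450020_at, had 47.9, 225 and 232 in the mutants, against 307, 161 and 313 in the controls, a log2 difference of -0.86 (SE 0.65). Mutant 8711 was the lowest of all, and without it the difference was -0.12 (SE 0.32). The other Cx3cr1 probe set, 1450019_at, was dim, with 7.9, 8.6 and 17.4 in the mutants and 6.6, 1.3 and 1.2 in the controls, and it lay in the opposite direction. In the fit without a filter its log2 difference was 1.57 (SE 0.63), with an adjusted p of 0.883 in limma, and all its control values were below the filter level of 15.1.

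The C1q chains assemble into 1 protein, yet their probe sets differed in direction. C1qa, C1qc and C1qb lie next to each other on chromosome 4, with 0 other protein-coding genes between neighbours. C1qb had 3 probe sets. The brightest, 1437726_x_at, had 621, 326.5 and 295 in mutants 8711, 9216 and 9266, against 223.5, 175 and 262 in the controls in the same order, a log2 difference of 0.84 (SE 0.34). The next, 1434366_x_at, had 400.3, 349 and 288 in the mutants and 227, 216 and 249.6 in the controls, a difference of 0.57 (SE 0.21). In both probe sets every mutant array was above every control array, with an adjusted p of 0.852 in limma. Mutant 8711 was the highest array in both, and without it the differences were 0.51 and 0.46. The third, 1417063_at, had 160, 122.5 and 118 in the mutants and 133, 71.9 and 159 in the controls, with overlapping groups and a difference of 0.20 (SE 0.36) that was 0.06 without mutant 8711 and -0.14 without control 9216.

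The first and second C1qb probe sets carry the suffix _x_at, which Affymetrix gives to sets with probes that also match other transcripts, and the third does not. Both tested Lyz1 probe sets carry it as well, so that 4 of the 15 member probe sets do. Over all tested probe sets, 9.01% of 1654 with this suffix did not overlap with the mutants higher, against 6.99% of 20529 with a plain _at suffix. A higher value in the mutants was found for 61.7% with the _x_at suffix (median log2 difference 0.07), against 43.3% with the plain suffix (median -0.07). Mutant 8711 minus the other mutants had a median of 0.06 on the log2 scale with the _x_at suffix, against -0.27 with the plain suffix, which C1qa and C1qc carry. The second Csf1r probe set carries the suffix _s_at. Of 1602 tested probe sets with that suffix, 52.4% were higher in the mutants, and 8.3% did not overlap with the mutants higher. Whether other transcripts contributed to the C1qb and Lyz1 signals, or to that of this Csf1r probe set, was not tested.

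C1qa, read by 1417381_at, had 6.1, 61.1 and 72.6 in the mutants, against 46.0, 30.9 and 54.2 in the controls. Mutants 9216 and 9266 were above every control and mutant 8711 was far below, so the log2 difference was -0.42 (SE 0.87) with all arrays and 0.63 (SE 0.33) without mutant 8711. C1qc, read by 1449401_at, had 58.1, 86.7 and 139 in the mutants and 130, 50.5 and 117.5 in the controls, a log2 difference of -0.05 (SE 0.48). Its lowest mutant was again 8711 and its lowest control 9216, and the difference was 0.25 without the first and -0.47 without the second. On the log2 scale C1qa in mutant 8711 differed from the mean of the other mutants by -3.13, at percentile 6.1 of all tested probe sets, and the brightest C1qb probe set by 1.0. The part of RNA quality in these gaps was not tested.

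Of the 10 genes, Lyz1 had the largest log2 difference by its brightest probe set. Lyz1 and Lyz2 are neighbouring copies on chromosome 10 with 0 protein-coding genes between them, and signal between them may be shared. The brightest Lyz1 probe set, 1436996_x_at, had 397, 365 and 171 in mutants 8711, 9216 and 9266, against 180.2, 86.3 and 132 in the controls in the same order. Mutant 9266 was below control 8711, and the log2 difference was 1.19 (SE 0.42, adjusted p = 0.838 in limma). The second, 1439426_x_at, had 95.4, 80.3 and 48.1 in the mutants and 59.8, 35.5 and 57.9 in the controls, a difference of 0.51 (SE 0.38) that was 0.31 without mutant 8711, 0.28 without control 9216 and 0.79 without mutant 9266. The third, 1450822_at, was dim, between 6.6 and 13.2 in the mutants and between 2.1 and 22.5 in the controls. It is the only Lyz1 probe set without the _x_at suffix. In the fit without a filter its log2 difference was -0.007 (SE 0.73), so the higher Lyz1 values rest on the _x_at probe sets. Lyz2, also called lysozyme M, was read by 1423547_at, with 101, 106 and 90.2 in the mutants, against 83.1, 31.2 and 66.9 in the controls. Every mutant array was above every control array, with means of 98.8 ± 7.90 and 60.4 ± 26.6 (SD, n = 3 each) and a log2 difference of 0.80 (SE 0.40, adjusted p = 0.852 in limma). Control 9216 was the lowest array in the first and second Lyz1 probe sets and in Lyz2, and without it the Lyz2 difference was 0.40 and that of the brightest Lyz1 probe set 0.91.

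Promoters are shown for C1qb, Lyz1 and Lyz2, which, with Csf1r and Tyrobp, were the 5 genes higher in the mutants under each of the 19 alternative settings by their brightest probe set. The windows run from 250 bases before to 50 bases after the annotated start, from RefSeq on GRCm38.p6, on the strand of the gene, and capitals mark AGGAAGT or its reverse complement. This motif holds the core that ETS factors bind, among them PU.1, the myeloid regulator encoded by Spi1.
C1qb, chr4:136886151-136886450, minus strand: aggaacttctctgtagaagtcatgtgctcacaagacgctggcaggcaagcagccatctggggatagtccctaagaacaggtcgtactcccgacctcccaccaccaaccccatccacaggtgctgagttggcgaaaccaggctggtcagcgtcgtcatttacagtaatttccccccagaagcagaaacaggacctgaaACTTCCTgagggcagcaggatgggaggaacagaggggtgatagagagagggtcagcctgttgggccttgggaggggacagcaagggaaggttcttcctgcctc
Lyz1, chr10:117292819-117293118, minus strand: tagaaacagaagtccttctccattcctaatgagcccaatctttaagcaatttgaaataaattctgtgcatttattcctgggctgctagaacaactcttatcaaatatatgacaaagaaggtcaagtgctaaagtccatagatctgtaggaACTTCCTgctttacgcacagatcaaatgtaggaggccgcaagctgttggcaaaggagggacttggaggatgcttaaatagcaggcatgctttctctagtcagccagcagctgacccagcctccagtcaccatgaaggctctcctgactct
Lyz2, chr10:117282223-117282522, minus strand: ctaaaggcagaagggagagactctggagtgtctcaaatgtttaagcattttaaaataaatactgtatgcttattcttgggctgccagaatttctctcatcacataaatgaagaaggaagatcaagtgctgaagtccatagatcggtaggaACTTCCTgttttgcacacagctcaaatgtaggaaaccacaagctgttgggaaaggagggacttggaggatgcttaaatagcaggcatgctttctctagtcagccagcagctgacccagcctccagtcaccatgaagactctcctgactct
The Lyz1 and Lyz2 windows were identical over 81.9% of 310 aligned columns, and in both the motif began 100 bases before the start. In C1qb it began 53 bases before it. Windows were found for 7 of the 10 genes, and 6 of the 7 held the motif on at least 1 strand (Cx3cr1 did not), beside 10.7% of 27025 genes in the table. The motif was chosen after these windows were read, and a match describes letters, not binding.

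Csf1 and Cx3cl1, ligands of the macrophage receptors, had lower values in the mutants by their brightest probe sets. The brightest probe set of Csf1, the growth factor that Csf1r binds, had 27.5, 35.4 and 60.5 in mutants 8711, 9216 and 9266, against 76.7, 66.6 and 87.7 in the controls in the same order. Every mutant array was below every control array, with a log2 difference of -0.94 (SE 0.37, adjusted p = 0.852 in limma), beside 5.43% of all genes that did not overlap with the mutants lower. A second Csf1 probe set had 1.6, 20.7 and 25.4 in the mutants and 28.1, 29.5 and 40.4 in the controls, a difference of -1.43 that was -0.46 without mutant 8711. A further one had 36.8, 42.3 and 38.9 in the mutants and 40.9, 51.8 and 18.3 in the controls, a difference of 0.20 with overlapping groups, which was -0.22 without control 9266. The last Csf1 probe set was left out by the filter, with means of 9.2 in the mutants and 9.27 in the controls. Its difference in the fit without a filter was -0.044, with overlapping groups. The brightest probe set of Cx3cl1, the ligand of Cx3cr1, had 18, 27.7 and 30.9 in the mutants, against 48.0, 50.3 and 38.3 in the controls. Its groups did not overlap, and the log2 difference was -0.82 (SE 0.34, adjusted p = 0.852 in limma). The other Cx3cl1 probe sets were left out by the filter. In the fit without a filter they had -0.17, -0.12 and 0.44, with overlapping groups. Without mutant 8711 the brightest probe sets of Csf1 and Cx3cl1 had -0.70 and -0.60. Il34, the second ligand of Csf1r, was under the filter level, with means of 8.9 in the mutants and 8.27 in the controls.

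**Figure D3:**
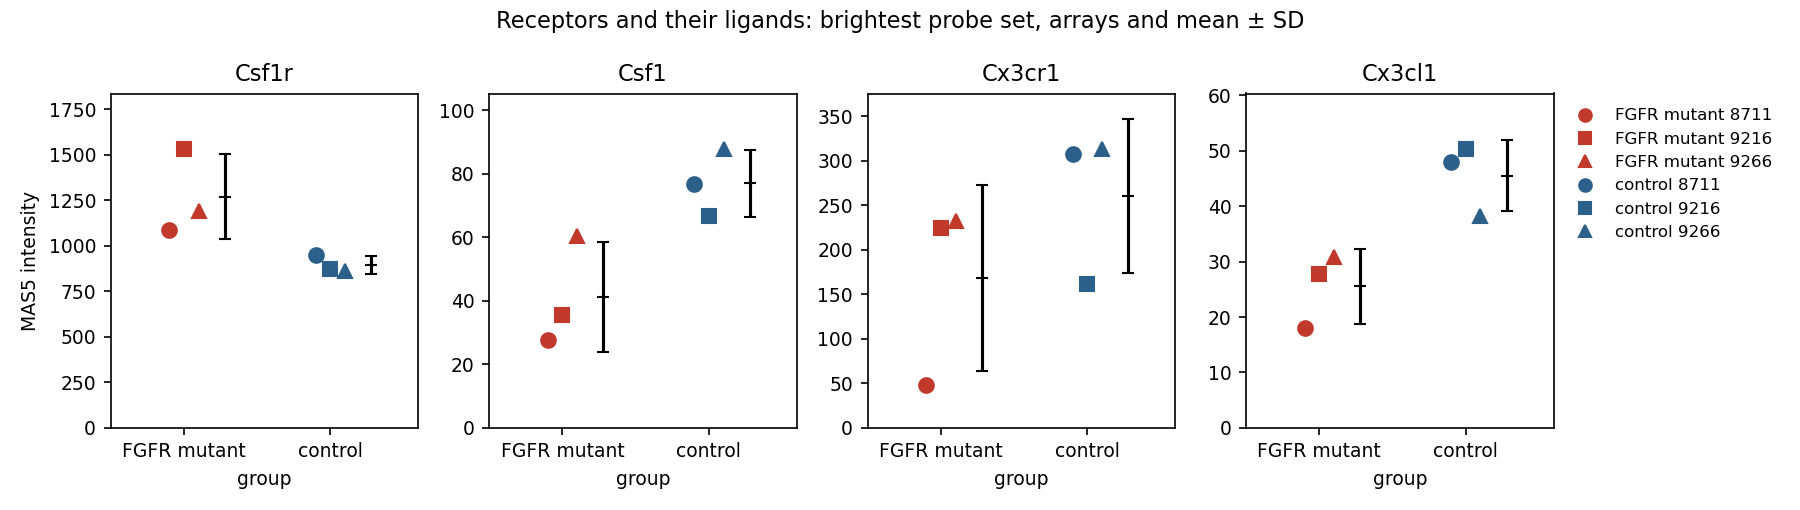
MAS5 intensity (linear axis from 0) of the brightest probe sets of Csf1r and Cx3cr1 and of their ligands Csf1 and Cx3cl1, 1 point per array with mean ± SD, mutants left of controls. Csf1r is higher and Csf1 and Cx3cl1 lower in every mutant array than in any control array, while Cx3cr1 overlaps.

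Of 12 genes of ligands and signalling partners, 8 were tested, 5 with higher and 3 with lower values (Csf1, Cx3cl1 and Dok2) and a median log2 difference of 0.16. With 1 array left out this median ran from -0.08 (3 of 8 higher, without mutant 9266) to 0.36 (6 of 8, without mutant 8711), and without control 9216 it was -0.03 (4 of 8). Plcg2, a phospholipase downstream of Tyrobp-coupled receptors, had 112 ± 4.24 in the mutants and 70.7 ± 6.90 in the controls (SD, n = 3 each), a difference of 0.65 without overlap (adjusted p = 0.852 in limma). Trem2 was under the filter level, with means of 12.9 in the mutants and 13.9 in the controls for its brighter probe set.

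Other macrophage genes were read in lists, and differences between lists were not tested. Of 18 surface genes tested, 17 were higher in the mutants and the median log2 difference was 0.44, beside 53.6% of all genes with a higher value and a median of 0.03. Of these 18, Folr2, Havcr2 and P2ry13 did not overlap, which is 3 genes or 16.7%, beside 9.44% of all genes. Havcr2 was dim, with 19.5, 20.5 and 21 in the mutants and 11.9, 12.4 and 10.7 in the controls. All its control values were under the filter level, so it passed the filter only through its mutant values. It is part of both counts above, and its difference is only loosely measured. Adgre1, which encodes the macrophage antigen F4/80, had 119, 176 and 129 in the mutants, against 128, 105 and 117 in the controls, a difference of 0.26 (SE 0.26) with overlap. Fcgr3, an Fc receptor, was the brightest surface gene, with 172 ± 37.4 in the mutants and 132 ± 60.3 in the controls (SD, n = 3 each) and a difference of 0.48 that was 0.03 without control 9216. Without that array 16 of 18 surface genes were higher, with a median of 0.29, and without mutant 8711 there were 17, with a median of 0.50. The fewest were 14, without mutant 9216, with a median of 0.35.

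Of 21 cytoplasmic and secreted macrophage genes tested, 13 were higher in the mutants, and the median was 0.17 on the log2 scale. Ctsc, a lysosomal protease that is not restricted to macrophages, had 2063, 2270 and 2626 in mutants 8711, 9216 and 9266, against 1243, 1215 and 1209 in the controls in the same order. Its log2 difference was 0.92 (SE 0.16, adjusted p = 0.401 in limma), without overlap. Grn, which encodes progranulin and is expressed in many tissues, had 3408 ± 307 in the mutants and 2559 ± 304 in the controls (SD, n = 3 each), a difference of 0.41. Aif1 (Iba1) and Cd68, both widely used to stain macrophages, had -0.02 (SE 0.35) and 0.17 (SE 0.27), with overlapping groups. Without control 9216 the median of this list was 0.01 and 11 of 21 were higher, and without mutant 8711 it was 0.24 and 18 of 21 were higher. Of 8 transcription factors tested, 4 were higher and 4 lower, with a median of 0.05. Without mutant 8711 or without control 9216, 6 of 8 were higher, with medians of 0.21 and 0.18, and with each other array left out 4 or 5 were higher. Spi1 had 39.0, 26.2 and 38.1 in the mutants, against 26.9, 23.1 and 28.3 in the controls, a difference of 0.36 (SE 0.32) with overlap. Apart from the C1q chains, 13 complement genes were on the array, and 6 were under the filter level. The 7 tested were all higher by their brightest probe set, with a median of 0.22. With 1 array left out 6 or 7 were higher, with medians from 0.25 (without mutant 8711) to 0.46 (without control 9216). Of all tested probe sets of these genes, only the dimmer one of Cfp was lower, at -0.97 with overlapping groups. C2, a component of the classical pathway, was 1.05 higher (SE 0.46) on the log2 scale, and its groups overlapped. In limma 0 genes of these lists passed adjustment.

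**Figure D4:**
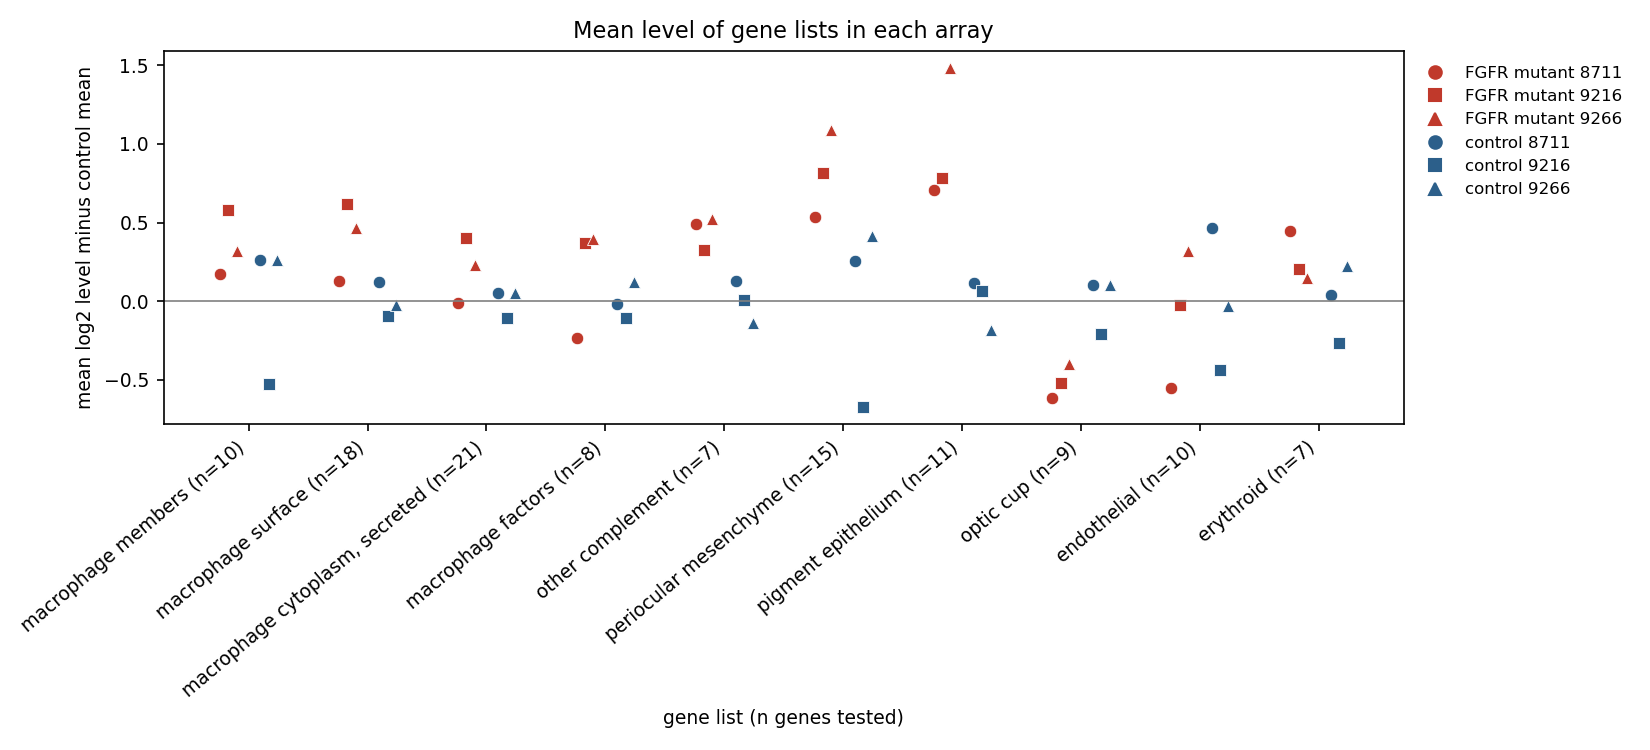
Mean log2 level of each gene list in each array relative to the control mean, mutants left of controls, for the macrophage genes and lists of other cell types. Control 9216 is the lowest array for the macrophage members, at -0.53, and for periocular mesenchyme, at -0.67. It is also the lowest for erythroid genes (-0.266), macrophage surface genes (-0.095) and cytoplasmic and secreted macrophage genes (-0.104).

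Markers of other cell types differed in direction. Of 15 periocular mesenchyme genes tested, 15 were higher in the mutants (median log2 difference 0.90), and without control 9216 there were 13, with a median of 0.47. Without mutant 9266 there were 14, with a median of 0.60. Their mean levels were 0.54, 0.82 and 1.09 in mutants 8711, 9216 and 9266, against 0.26, -0.67 and 0.42 in the controls in the same order, so control 9216 was lowest there too. Their summed intensity ranged from 3122 to 3988 in the mutants and from 1302 to 2607 in the controls. Of 11 pigment epithelium genes, 11 were higher, with summed intensities of 21530 to 35370 in the mutants and 13030 to 15280 in the controls. Erythroid genes were higher in 7 of 7, with a median of 0.30 that was 0.14 without mutant 8711 (7 of 7), 0.16 without control 9216 (5 of 7) and 0.46 without control 9266 (7 of 7). Endothelial genes were higher in 5 of 10, with a median of -0.004, and these ran from 2 of 10 and -0.26 without control 9216 to 7 of 10 and 0.25 without mutant 8711. Optic cup genes were higher in 2 of 9, and in 2 or 3 with 1 array left out, with medians from -0.79 to -0.44. Lens genes were higher in 1 of 5 (median -0.45), with medians from -1.0 to 0.07 with 1 array left out. Platelet genes were higher in 3 of 3, with a median of 0.48 that ran from 0.26 to 0.57 with 1 array left out. The part of these tissues in the macrophage values was not tested.

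Markers of other white blood cells were mostly under the filter level. Of 9 granulocyte genes on the array 2 were tested, Mpo and Prtn3, with log2 differences of 0.31 (SE 0.90) and -0.15 (SE 0.40). Of 11 lymphoid genes 2 were tested, Cd79b and Cd8a, with -0.11 (SE 0.31) and 0.46 (SE 0.40), and the T cell genes Cd3d, Cd3e and Cd3g had means of 1.73, 4.8 and 4.63 in the mutants and 0.7, 2.77 and 2.8 in the controls. Of 6 mast cell genes only Kit was tested, which other cell types also express.

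The genes whose log2 levels over the 6 arrays were most like the mean of the 10 macrophage genes were Ctsk, a cysteine protease, with a Pearson correlation of 0.991, followed by 1810064F22Rik (0.990), Slc18a1 (0.986), Pdgfra (0.979) and Emx2 (0.975). Pdgfra, a growth factor receptor of mesenchyme, had 157, 219.9 and 178 in the mutants, against 140.4, 77.1 and 167 in the controls. Control 9216 was the lowest array for each of these 5 genes. This largely follows from their selection, since the mean they were matched to was lowest in that array. With 6 arrays, 66 of 12272 genes, or 0.538%, had a correlation over 0.9, so the ranking is a description.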

How the data were processed

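Total RNA of 6 samples was extracted with Trizol, and 10 ug was biotin-labelled for Affymetrix arrays, per the labels' protocols. Each deposited value is a linear intensity, given for every probe set in every array. MAS5 is named in the submitters' processing notes, and its version and settings are not given in the sources used here. Detection calls were not used here. Of 45101 probe sets, 64 manufacturer controls were left out, and the platform annotation gave 1 symbol to 34945, several to 932 and none to 9160. All 10 member genes matched the reference gene table, and 0 member symbols occurred in probe sets with several. Values were transformed as log2(intensity + 1.7), where 1.7 is the 10th percentile over the table, with no further normalization. Probe sets under the 40th percentile of mean log2 value were left out. This mean was taken over all 6 arrays, so a dim gene could pass through the values of 1 group. Groups were compared with limma 3.58.1 (lmFit, and eBayes with a robust trend; R 4.3.3, statmod 1.5.0), with Benjamini-Hochberg adjustment over 27022 probe sets. Members under the filter were read from the fit without a filter. Where a single value per gene is given, it is that of the brightest probe set.

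The members and gene lists were chosen with earlier results of these data known, so lists are described by counts and medians. Named genes were every member probe set, 8 genes named in any case (Csf1, Il34, Cx3cl1, Trem2, Spi1, Aif1, Cd68 and Adgre1), from each list the genes with the smallest p in each direction and the brightest, and the 5 genes most like the members' mean. Not all of these are printed. Cd3d, Cd3e, Cd3g, Folr2, P2ry13 and Dok2 were named after their values were seen. In a simulation of 27022 probe sets at this spread, 200 of them changed, the limma fit called 0% of those changed 2-fold and 17% of those changed 4-fold, and 0 falsely. Alternatives were other added values, normalizations, filters and variance models, the title number as a block, the mean of a gene's probe sets, and leaving out arrays. Promoters were aligned with Biopython 1.88, and figures were drawn with matplotlib 3.10.9 in Python 3.11.15.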

Additional observations from a re-analysis of the deposited data

How the results depend on the processing

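In limma 0 of 15 member probe sets (0 of 18 without the filter) passed adjustment under any alternative run. Over all probe sets, where 0 passed with all arrays, 184 passed with array weights, 1 without both 8711 arrays, 365 without these arrays and with the title number as a replicate block, 131 without mutant 8711 and control 9216, and 0 to 1 with 1 array left out. The median over the member genes stayed above 0 under every alternative, from 0.29 to 0.67 with 1 array left out. Csf1r, Tyrobp, C1qb, Lyz1 and Lyz2 were higher in the mutants in all 19 alternatives by their brightest probe set, and the sign of the other 5 genes depended on the setting. C1qc, at -0.05, was 0.13 with quantile normalization and 0.062 with median centring, and ran from -0.47 to 0.25 with 1 array left out. Without both 8711 arrays, with or without the replicate block, Cx3cr1 was 0.025, Mrc1 -0.019, C1qa 0.68 and C1qc 0.50. With array weights Mrc1 was -0.28 and C1qa 0.29. With 1 array left out Mrc1 ran from -0.14 to 0.46 and C1qa from -1.0 to 0.63. Without mutant 8711 and control 9216, a setting chosen after seeing the data, Mrc1 was -0.38, Ptprc -0.076 and C1qa 0.40. The cause was not tested. Deviations from the group means of same-numbered arrays correlated at 0.05 (8711), 0.48 (9216) and -0.11 (9266) over all probe sets tested. Between arrays of different numbers the correlations ran from -0.45 to 0.35. These values do not settle whether the title numbers pair the samples. With all arrays, the replicate block called 0 probe sets and left the median at 0.44. Within the numbers 8711, 9216 and 9266, 12, 15 and 9 of the 15 member probe sets were higher in the mutant. The same held for 43.4%, 51.3% and 53.9% of all probe sets tested. Depth cannot be given for arrays, and dim probe sets near the filter level have only loosely measured differences.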
